A study of Mus musculus with 6 samples.

Results

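Interferons are secreted proteins that warn cells of infection and tissue damage. They bind receptors that activate JAK kinases, and these in turn activate STAT and IRF transcription factors that switch on antiviral genes. Type I interferons act mainly at a DNA element called ISRE, which STAT2 and IRF9 help to bind. Interferon gamma, made mainly by T and NK cells, acts mainly at an element called GAS. In kidney, tubule cells, endothelium and resident immune cells all carry receptors and can respond.

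The genes described here are 35 named members of this pathway, chosen by symbol, and all 35 were found among the 20138 genes of the authors' deposited table. They comprise the ligand gene Ifng, 4 receptor chains, 3 kinases, 8 transcription factors, 8 nucleic acid sensors, the modifier gene Isg15 with its protease gene Usp18, and 9 other induced genes. Members of the guanylate-binding protein and Ifi44 families are not among them. Whole kidneys of mice at postnatal day 35 were compared by RNA sequencing. The Pkd2-miR-214-KO mice (n = 3) carried Pkhd1Cre, Pkd2 F/F and miR-214null, and the Pkd2-KO mice (n = 3) carried Pkhd1Cre and Pkd2 F/F alone. Both genotypes therefore lack Pkd2, the polycystin-2 gene whose loss makes kidneys cystic, in the cells where the Pkhd1 promoter drives Cre, chiefly collecting duct and other tubule cells. No animal with intact Pkd2 entered the comparison, so it describes the interferon pathway of a cystic kidney with and without miR-214, and not its difference from a healthy kidney.

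Values per animal were not analysed here. Each gene has 1 log2 fold, Pkd2-miR-214-KO over Pkd2-KO, and 1 mean level as log2 CPM (read counts scaled to library size) over the libraries, both from the authors' deposited table. Errors are the approximate standard error (SE) that the fold and its likelihood ratio imply, and intervals are approximate 95% intervals. Whether the groups overlapped cannot be given, and library depth is unknown. The 10 markers of kidney tubule and glomerulus had mean log2 CPM between 4.74 and 11.40 in the authors' deposited table, and none was missing. Their median log2 fold was -0.46, with 7 of 10 negative and a range of -0.70 to 0.35. An unadjusted p under 0.05 was found for 0 of 10, against 4.82% of all genes. The part of tubule cell content in the members' folds was not tested. Fewer cells of a type and less RNA per cell cannot be told apart in whole kidney.

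The deleted microRNA is processed from the Mir214 hairpin on chromosome 1. Its 2 mature strands, from RefSeq on GRCm38.p6, are shown because their seeds (bases 2 to 8, in capitals) set which transcripts can pair with them.
mmu-miR-214-3p (chr1:162223438-162223459, plus strand): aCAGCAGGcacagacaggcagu
mmu-miR-214-5p (chr1:162223397-162223418, plus strand): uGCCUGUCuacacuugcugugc

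None of the 35 members passed an adjusted p of 0.05 in the authors' deposited table. Of the 35 members, 0 were called by edgeR's likelihood ratio test with Benjamini-Hochberg adjustment, against 0.124% of all genes, and every member had an adjusted p of 1. Without adjustment 0 of 35 had a p under 0.05, against 4.82% of all genes. Most members had a small negative fold. The fold was negative for 26 of 35 members (74.3%) and positive for 9, against 48.2% negative among all genes and 50.4% among the 14520 genes with a mean log2 CPM of at least 0. The median log2 fold of the members was -0.11, against 0.00 over all genes, and their mean weighted by precision was -0.07.

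In size the members' folds were close to those of the genes with a mean log2 CPM of at least 0. The median size was 0.15 in both. The log2 fold was under 0.25 in either direction for 26 of 35 members (74.3%), against 71.2% of the genes with a mean log2 CPM of at least 0. The median approximate SE was 0.25 for the members and 0.26 for those genes. For 29 of 35 members (82.9%) the approximate interval lay wholly between log2 folds of -1 and 1, that is, inside a 2-fold change either way. The same held for 79.5% of the genes with a mean log2 CPM of at least 0. The intervals of the other 6 members, Ifng, Mx1, Zbp1, Bst2, Isg15 and Oas1a, reached below -1. No member's interval reached 1.

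**Figure D1:**
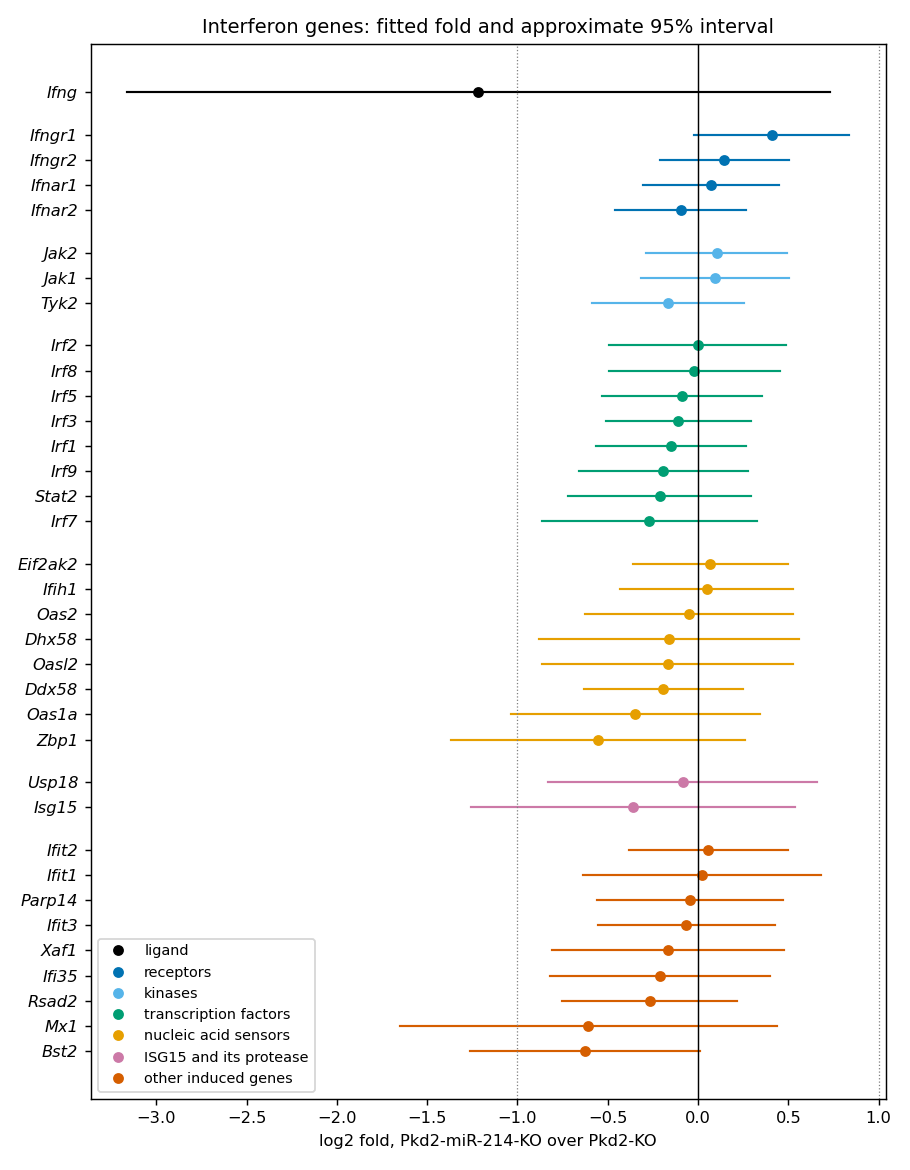
Log2 fold of each of the 35 interferon genes (points) with its approximate 95% interval (lines), Pkd2-miR-214-KO over Pkd2-KO, coloured and grouped by role; dotted lines mark log2 folds of -1 and 1. All 35 intervals span 0, and 26 of the points lie on the negative side.

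**Figure D2:**
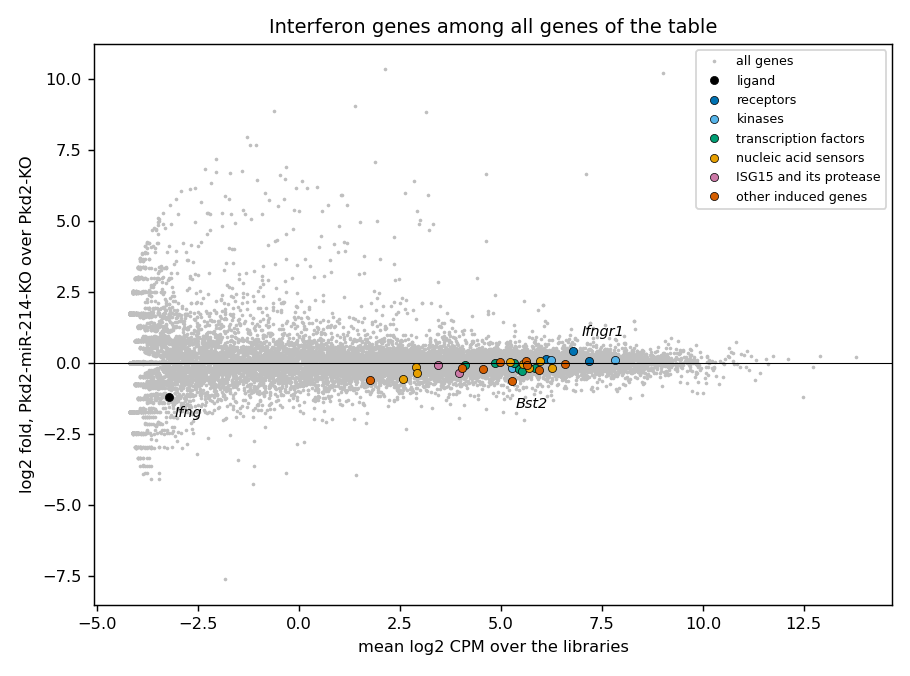
Log2 fold, Pkd2-miR-214-KO over Pkd2-KO, against mean log2 CPM for all 20138 genes (grey) and for the 35 interferon genes (coloured by role). The members lie within the grey band of their expression level, between -1.22 for Ifng and 0.41 for Ifngr1.

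Ifng, which encodes interferon gamma, had the lowest log2 fold of the members, -1.22 ± 0.99 (SE, p = 0.221, adjusted p = 1, edgeR likelihood ratio test), in the authors' deposited table. Its mean log2 CPM of -3.23 was also the lowest of the 35 and the only one under 0. At that level few reads lie behind the fold, and its interval ran from -3.16 to 0.73. The 11 markers of T and NK cells had negative log2 folds in 11 of 11, with a median of -0.74 and a range of -1.92 to -0.01 in the authors' deposited table. Their median approximate SE was 0.73, close to the size of their median fold. Of these 11 markers 1 (9.09%) had an unadjusted p under 0.05, against 4.82% of all genes. It was the granzyme gene Gzmb (-1.92 ± 0.81, adjusted p = 0.745, edgeR likelihood ratio test). Of the 11 markers 5 had a mean log2 CPM under 0, Gzmb among them (-0.72), so few reads lie behind their folds too. The part of T and NK cells in the value of Ifng was not tested.

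Of the receptor genes 3 of 4 had a positive fold, with a median log2 fold of 0.11. Ifngr1, the ligand-binding chain of the interferon gamma receptor, had 0.41 ± 0.22 (SE), a 1.33-fold higher level in Pkd2-miR-214-KO kidneys with an interval of -0.02 to 0.84, in the authors' deposited table. Its p of 0.0619 (adjusted p = 1, edgeR likelihood ratio test) was the second smallest among the members. Ifngr2, the signalling chain of the same receptor, had 0.14 ± 0.18 in the authors' deposited table. The type I receptor genes had 0.07 ± 0.19 for Ifnar1 and -0.10 ± 0.19 for Ifnar2 in the authors' deposited table. The SE of the 4 receptor genes, 0.18 to 0.22, was below the members' median of 0.25, and all 4 intervals lay between -1 and 1. Ifnar2, Ifnar1 and Ifngr2 lie close together on chromosome 16, while Ifngr1 lies on chromosome 10.

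The kinases that sit on these receptors had log2 folds near 0 in the authors' deposited table. Jak2, which pairs with the interferon gamma receptor, had 0.10 ± 0.20 (SE). Jak1, which serves both receptor types and had the highest mean log2 CPM of the members (7.83), had 0.09 ± 0.21 in the authors' deposited table. Tyk2, the partner of JAK1 at the type I receptor, had -0.17 ± 0.21 in the authors' deposited table. All 3 intervals lay between -1 and 1.

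All 8 transcription factor genes had negative folds, with a median log2 fold of -0.13 and none below -0.27. Irf7, the amplifier of type I interferon production and itself an induced gene, had -0.27 ± 0.30 (SE, p = 0.375, adjusted p = 1, edgeR likelihood ratio test) in the authors' deposited table. Stat2 and Irf9 encode subunits of the ISRE-binding complex, and had -0.21 ± 0.26 and -0.19 ± 0.24 in the authors' deposited table. Irf1, an activator induced by interferon gamma, had -0.15 ± 0.21, and Irf2, which competes with it, -0.00 ± 0.25 in the authors' deposited table. The log2 fold was -0.11 ± 0.21 for Irf3, the factor that starts interferon production after sensing, and -0.09 ± 0.23 for Irf5, which acts after Toll-like receptors, in the authors' deposited table. Irf8, a factor of macrophage and dendritic cell development, had -0.02 ± 0.24 in the authors' deposited table. Irf3, Irf5, Irf7 and Irf9 overlap the protein-coding genes Bcl2l12, Tnpo3, Phrf1 and Rnf31 in GENCODE M21. Such overlaps also exist for Irf1 (Gm17334), Irf8 (Gm20388), Jak1 (Raver2) and Ifnar2 (Gm21970). Rnf31, Gm20388 and Gm21970 lie on the same strand as the member they overlap. Bcl2l12, Tnpo3, Phrf1, Gm17334 and Raver2 lie on the opposite strand. The sources used here do not give how reads of overlapping genes were assigned.

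The nucleic acid sensors had a median log2 fold of -0.16, with 6 of 8 negative. Zbp1, a sensor of left-handed nucleic acids that can start necroptosis, had -0.55 ± 0.42 (SE, p = 0.183, adjusted p = 1, edgeR likelihood ratio test) in the authors' deposited table, with a mean log2 CPM of 2.57. Oas1a, an oligoadenylate synthetase that activates RNase L, had -0.35 ± 0.35 (p = 0.322) in the authors' deposited table, and whether its reads were shared with close paralogs was not tested. The 2 other members from that family had -0.05 ± 0.29 for Oas2 and -0.17 ± 0.35 for Oasl2 in the authors' deposited table. The cytosolic RNA receptor genes had -0.19 ± 0.22 for Ddx58, which encodes RIG-I, and 0.05 ± 0.24 for Ifih1, which encodes MDA5, in the authors' deposited table. Dhx58, which encodes the related regulator LGP2, had -0.16 ± 0.37, and Eif2ak2, the kinase PKR that halts translation, 0.07 ± 0.22 in the authors' deposited table. Ddx58 and Ifih1 had opposite signs, each within 1 SE of 0.

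Isg15, a ubiquitin-like protein that is joined to other proteins after interferon, had a log2 fold of -0.36 ± 0.46 (SE, p = 0.432, adjusted p = 1, edgeR likelihood ratio test) in the authors' deposited table. Usp18, the protease that removes it and that also damps the type I receptor, had -0.08 ± 0.38 (p = 0.823) in the authors' deposited table. Both SEs were above the members' median of 0.25.

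Among the 9 other induced genes 7 had a negative fold, with a median log2 fold of -0.17. Bst2, the tetherin that holds budding virus at the cell surface, had the smallest p of all 35 members. Its log2 fold was -0.63 ± 0.33 (SE, p = 0.0550, adjusted p = 1, edgeR likelihood ratio test), 0.648 times the Pkd2-KO level, with an interval of -1.26 to 0.01, in the authors' deposited table. By p-value Bst2 ranked 1097 and Ifngr1 1199 of the 20138 genes, and the next member, Zbp1, ranked 3047. Mx1, a dynamin-like antiviral GTPase, had -0.61 ± 0.53 (p = 0.254) in the authors' deposited table at a mean log2 CPM of 1.74, the second lowest of the members. Rsad2, which encodes viperin, had -0.27 ± 0.25 (p = 0.277) in the authors' deposited table.

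The Ifit genes encode proteins that bind foreign RNA ends and lie close together on chromosome 19. They had log2 folds of 0.06 ± 0.22 (SE) for Ifit2, 0.02 ± 0.34 for Ifit1 and -0.07 ± 0.25 for Ifit3 in the authors' deposited table. Close copies of Ifit1 and Ifit3 exist in the mouse genome, and whether reads were shared with them was not tested. The remaining induced genes were Ifi35, a partner of NMI (-0.21 ± 0.31), Xaf1, an antagonist of the apoptosis inhibitor XIAP (-0.17 ± 0.33), and Parp14, an ADP-ribosyltransferase (-0.04 ± 0.26), in the authors' deposited table. Bst2 and Mx1 were the lowest of this group, and the 3 Ifit genes lay within 1 SE of 0.

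The promoters of the members were searched for both interferon elements, in RefSeq windows on GRCm38.p6 that run from 250 bases before to 50 after each annotated start. The ISRE core was searched as TTTCNNTTTC on both strands and GAS as TTCNNNGAA, which reads the same on both strands. A window was found for 29 of 35 members, 33 windows in all. The ISRE core was present in 11 of these 33 windows (33.3%), against 3.44% of all 32851 windows. GAS was present in 11 of 33 (33.3%), against 8.30% of all windows. A match says only that these letters are there.

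The stretches with ISRE cores are shown for the 5 members that held more than 1 match, written along the strand of the gene, with the matches in capitals. Matches overlap each other in Isg15, Oas1a and Bst2, and in Bst2 the first ISRE match also overlaps a GAS match.
Isg15 (chr4:156200867-156200904, minus strand): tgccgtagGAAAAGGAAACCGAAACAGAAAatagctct
Bst2 (chr8:71537579-71537610, minus strand): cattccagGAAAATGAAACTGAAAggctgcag
Oas1a (chr5:120907522-120907553, minus strand): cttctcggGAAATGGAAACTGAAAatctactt
Ifit1 (chr19:34640777-34640821, plus strand): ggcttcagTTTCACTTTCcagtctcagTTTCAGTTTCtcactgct
Ifit3 (chr19:34583365-34583424, plus strand): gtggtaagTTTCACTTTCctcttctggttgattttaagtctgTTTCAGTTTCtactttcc

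The intervals of these 5 genes overlapped each other. Isg15 with 3 matches and Bst2 and Oas1a with 2 each had log2 folds of -0.36, -0.63 and -0.35 in the authors' deposited table, while Ifit1 and Ifit3 with 2 each had 0.02 and -0.07. Over the 11 members with an ISRE core the median log2 fold was -0.19, with 8 negative, and over the 18 members with a window but no core it was -0.10, with 12 negative. For GAS the median was -0.10 over the 11 members with a match and -0.14 over the 18 without. The GAS match of Irf1 is shown because this gene is a textbook target of interferon gamma.
Irf1 (chr11:53769916-53769940, plus strand): agcctgatTTCCCCGAAatgatgag

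**Figure D3:**
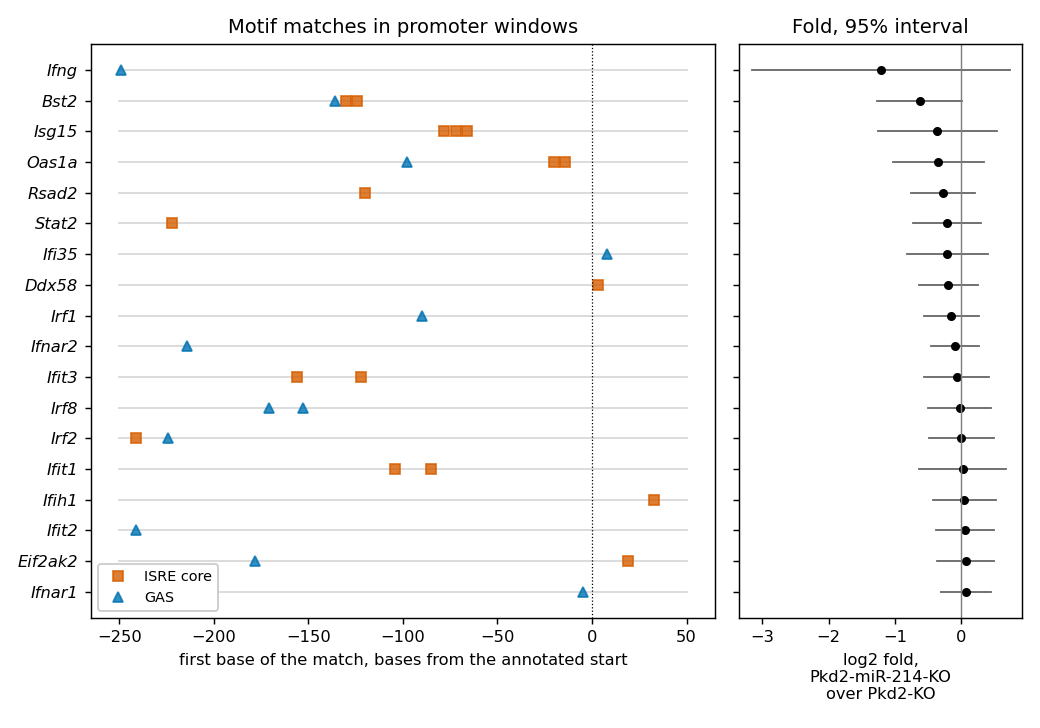
Left, positions of ISRE core (squares) and GAS (triangles) matches in the promoter windows of the 18 members that held any, in bases from the annotated start; right, the log2 fold of each gene, Pkd2-miR-214-KO over Pkd2-KO, with its approximate 95% interval. Genes are ordered by fold, and ISRE matches occur among both low and high folds, from -0.63 for Bst2 to 0.07 for Eif2ak2.

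Sites for the deleted microRNA were looked for in 1 annotated 3' UTR per gene, the longest. The 7-base match to the miR-214-3p seed, CCTGCTG, was present in 8 of 35 members (22.9%), against 21.3% of the 16889 genes with an annotated 3' UTR. The 8 were Ifngr1, Ifngr2, Ifnar2, Irf1, Irf2, Irf8, Ifit1 and Ifi35, so 3 of the 4 receptor genes held a site. The median log2 fold was -0.01 over these 8 members, with 3 positive, and -0.17 over the 27 members without a site, with 6 positive. The same split was not made over all genes, so this difference has no background beside it. The median approximate SE of all 35 members was 0.25. The match to the miR-214-5p seed, GACAGGC, was present in 2 members, Tyk2 and Xaf1, against 9.41% of genes. The sites of Ifngr2 and Ifnar2 are shown with the match in capitals, as examples of sites in receptor genes.
Ifngr2 (chromosome 16): tgttagctgccCCTGCTGtcagaagactg
Ifnar2 (chromosome 16): aggtttgagccCCTGCTGtctgggccctt
The log2 folds of the 3 receptor genes with a site were 0.41 for Ifngr1, 0.14 for Ifngr2 and -0.10 for Ifnar2 in the authors' deposited table, and none passed the test. Whether any of these sites is used was not tested.

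Other genes of the pathway were taken from a list of 76, of which 69 were in the authors' deposited table. None had an adjusted p under 0.05 (edgeR likelihood ratio test), and 3 of 69 (4.35%) had an unadjusted p under 0.05, against 4.82% of all genes. All 3 were lower in Pkd2-miR-214-KO, as were 1.71% of all genes at that p. The median log2 fold was -0.08, with 40 of 69 negative. The 6 with the smallest p-values all had negative folds, and none passed the adjusted test. They were the chemokine genes Cxcl11 (-1.17 ± 0.50, SE), Cxcl10 (-0.81 ± 0.39) and Cxcl9 (-1.53 ± 0.78) and the GTPase genes Tgtp1 (-0.97 ± 0.44), Iigp1 (-0.60 ± 0.34) and Igtp (-0.48 ± 0.27) in the authors' deposited table. Their adjusted p-values lay between 0.770 and 1. Type I interferon genes themselves were near the floor of the table, where the authors' deposited table gives mean log2 CPM of -4.06 for Ifnb1 and -4.19 for Ifna1. At those levels their log2 folds of 0.75 ± 1.41 and 1.73 ± 1.49 give no direction.

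Outside the members, 4 genes of the Ifi44 and guanylate-binding protein families were looked at, chosen with their earlier results known, and 2 of the 4 passed the test. Ifi44l had a log2 fold of 8.82 ± 0.86 (SE, adjusted p = 1.63e-20) and Gbp2b 5.34 ± 1.06 (adjusted p = 0.000931) in the authors' deposited table (edgeR likelihood ratio test). Their nearest relatives had 0.60 ± 0.26 for Ifi44 (adjusted p = 0.770) and -0.37 ± 0.25 for Gbp2 (adjusted p = 1) in the authors' deposited table. The difference between either gene and the members was not tested.

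Markers of immune cells that make or answer interferon were set beside the members. Beside the T and NK cell markers given above, the 6 markers of plasmacytoid dendritic cells, the main producers of type I interferon, had a median log2 fold of 0.39 and a range of -0.19 to 0.60 in the authors' deposited table. Of those 6 markers 4 had a positive fold and 2 a negative one, and 3 had a mean log2 CPM under 0. Their median approximate SE was 0.75 and their smallest p 0.460 (edgeR likelihood ratio test). The median log2 fold of the plasmacytoid dendritic cell markers therefore gives no direction. The 9 macrophage and monocyte markers in the table had a median log2 fold of 0.13 and a range of -0.79 to 0.51. Of these 1 (11.1%) had an unadjusted p under 0.05, against 4.82% of all genes. It was the mannose receptor gene Mrc1 (0.51 ± 0.24, adjusted p = 0.926, edgeR likelihood ratio test). The 5 B cell markers had positive folds in 5 of 5, a median of 3.77 and a range of 1.36 to 4.23 in the authors' deposited table. An unadjusted p under 0.05 was found for 5 of 5, against 4.82% of all genes. Each of the 5 had an adjusted p of 0.113 or more (edgeR likelihood ratio test). Their median approximate SE was 1.11, at mean log2 CPM of 0.80 to 2.25. All 5 mark 1 cell type in the same animals, so their folds are not independent. Whether 1 animal carried these folds cannot be given. Summed marker levels per genotype could not be given from values pooled over the libraries. The part of any of these cell types in the members' folds was not tested.

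**Figure D4:**
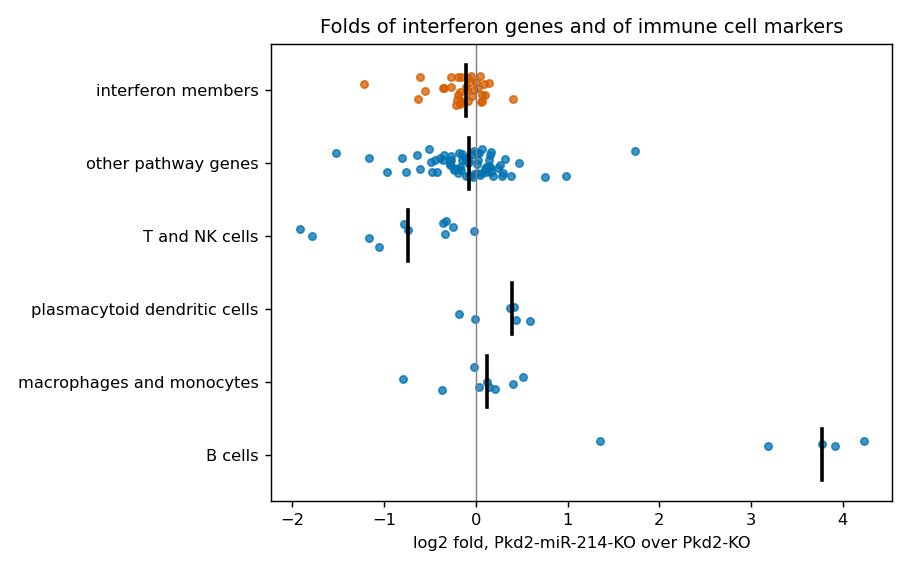
Log2 folds, Pkd2-miR-214-KO over Pkd2-KO, of the 35 interferon genes (orange) and of the other pathway genes and immune cell markers (blue); each point is a gene and each bar the median of its list. The members centre on -0.11, T and NK cell markers on -0.74 and B cell markers on 3.77.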

How the data were processed

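Kidney RNA of 6 mice, 3 per genotype, was sequenced. TopHat2 2.0.12, edgeR and mm10 are named in the submitters' processing notes, without settings. The labels' protocols name a stranded total RNA kit, while the series text speaks of polyA RNA. The authors deposited 1 table, which per the file headers holds a log2 fold, a mean log2 CPM, a likelihood ratio (a score) and a raw and adjusted p-value per gene. The sources used here give no filter, normalization factor or rule for counting reads.

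The planned test on counts gave way to the authors' test, because the table holds no counts per library. Its p-value equalled the chi-square tail of the likelihood ratio on 1 degree of freedom (largest difference 6.25e-15), and its adjusted p the Benjamini-Hochberg value over 20138 genes (5.10e-14). The header does not give the direction of the fold. Mir214, the targeted hairpin, settles it, since the authors' deposited table lists it at -7.62, so it cannot also check the labels. Each SE was taken as the absolute log2 fold over the root of the likelihood ratio, which is poor at low counts. The functions were tested on simulated data. Some items that come under the lists are not reported here.

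Members and lists were chosen with earlier results of these data known. All members were named, with fuller values for those of smallest p in each role. Positions and 3' UTRs came from GENCODE M21 (GRCm38, the assembly of mm10), and promoters and microRNAs from RefSeq (GRCm38.p6). Alternatives covered the low-expression filter, the threshold, the adjustment, the reference distribution and the centring. Computations ran under Python 3.11.15 with numpy 2.4.6, pandas 2.3.3 and scipy 1.17.1, and figures were drawn with matplotlib 3.10.9.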

Additional observations from a re-analysis of the deposited data

How the results depend on the processing

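The count of members past an adjusted p of 0.05 was 0 as deposited. It was also 0 when p-values were adjusted again over the 14520 genes with a mean log2 CPM of at least 0. A threshold of 0.1 and Holm adjustment gave 0 too. The count with an unadjusted p under 0.05 was 0 as deposited and 0 under an F distribution with 4 residual degrees of freedom. None of these alternatives could have given another count. The smallest unadjusted p of a member was 0.0550 (edgeR likelihood ratio test), and neither adjustment nor the F distribution can lower a p-value. The threshold of 0.1 could call no member, since every member had an adjusted p of 1. These counts therefore say nothing of stability. The median log2 fold of the members was -0.10 with the filter and -0.11 with recentring, beside -0.11 as deposited. A mean weighted by precision was -0.07. The share of negative folds lay between 73.5% and 74.3%. The filter took out 1 member, Ifng, and recentring used a median of only -0.0022. Neither could therefore move the median or the share far. Recentring changed the sign of 0 members. The median of the other pathway genes was -0.08 with and without the filter, an alternative chosen after seeing the data. Leaving out a replicate, other normalizations and per-library filters were not run, since the table gives no values per library. No paired analysis was possible because the result comes from a table of fitted values and the labels pair no animals. Library depth is unknown. Mean log2 CPM was under 0 for Ifng and for 3 of the other pathway genes, Ifnb1, Ifna1 and Ido1. It was also under 0 for 5 T and NK cell markers and 3 plasmacytoid dendritic cell markers.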
